A study of Mus musculus with 8 samples.

Results

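The chemokine and homing receptors described here are 8 genes, taken from the count table by symbol: Ccr7, Cxcr3, Cxcr6, Ccr2, Cxcr5, Ccr4, Ccr8 and Cxcr4. They are 8 of 52997 symbols, and all 8 passed the filter on low counts that left 11490 genes for testing. RNA was sequenced from CD4+ T cells sorted from mouse liver in 4 groups of 2 libraries: PD-1+ cells at 10 days of age, PD-1+ cells at 5 days, PD-1- cells at 10 days and PD-1- cells at 5 days. Every group came from Aire-deficient C57BL/6 mice with a GFP reporter of Foxp3, and no Aire-sufficient mice are among the 8 libraries. Aire is the thymic regulator that lets medullary epithelium display tissue antigens to developing T cells. The sorted cells were live, CD45+, TCRb+ and CD4+ and lacked the Foxp3 reporter, so regulatory T cells were gated out. PD-1 is an inhibitory receptor of activated T cells, and here it is the gate that separates the populations.

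Chemokine receptors are G protein-coupled receptors that steer T cells along gradients of secreted chemokines. A naive T cell carries receptors that bring it into lymph nodes, and an activated T cell exchanges them for receptors that lead into inflamed or barrier tissue. In the liver, CXCL16 on sinusoidal endothelium holds CXCR6-bearing lymphocytes, and interferon-induced ligands of CXCR3 draw activated T cells into inflamed parenchyma.

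The 8 libraries held 1473216 to 3019551 counts. Pdcd1, which encodes PD-1, had 1953 and 1420 counts at 10 days and 615 and 564 at 5 days in PD-1+ libraries, against 4 and 3 at 10 days and 5 and 1 at 5 days in PD-1- libraries. The 7 markers of CD4 T cells (Cd3e, Cd3d, Cd3g, Cd4, Trac, Cd5, Cd28) had edgeR adjusted p-values of 0.0529 to 0.896 between the populations over both ages, and their summed level was 3218 to 5687 CPM (counts scaled to library size) in PD-1+ libraries and 3560 to 4129 CPM in PD-1- libraries. At single ages some of them were called. At 10 days Cd3e (log2 difference of PD-1+ against PD-1- cells 0.64), Cd3g (0.59), Cd4 (0.79) and Trac (0.59) were higher in PD-1+ cells (edgeR adjusted p 0.000574 to 0.0181), and at 5 days Cd3e (-0.45) and Cd3d (-0.58) were lower (edgeR adjusted p 0.0331 and 0.00898). Between ages in PD-1+ cells Cd3e, Cd3g, Cd4 and Trac were higher at 10 days, by 0.74 to 0.99 on the log2 scale (edgeR adjusted p 0.000327 to 0.00779). Foxp3 had 0 to 2 counts in PD-1+ libraries and 10 to 32 counts in PD-1- libraries. Of markers of other cells, 7 hepatocyte genes summed to 25.3 to 57.7 CPM in PD-1+ libraries and 2.27 to 7.78 CPM in PD-1- libraries. The 3 that were tested (Alb, Apoa1 and Ahsg) were called higher in PD-1+ cells, beside 21.9% of all tested genes. They passed the filter on low counts only through PD-1+ libraries, so their higher level there was fixed by the filter and is a description. Natural killer and innate lymphoid markers summed to 4.63 to 10.98 CPM in PD-1+ libraries and 2.59 to 33.7 CPM in PD-1- libraries. Of these, 2 of 5 tested, Ncr1 and Klrb1c, were lower in PD-1+ cells (log2 fold changes -3.23 and -3.05, edgeR adjusted p 0.0447 and 0.0102), beside 19.6% of all tested genes. Both passed the filter on low counts only through PD-1- libraries, so their lower level in PD-1+ cells was fixed by the filter and is a description. Cd8b1, a chain of the CD8 co-receptor, was at 3.82 to 15.8 CPM in PD-1+ libraries and 23.3 to 42.4 CPM in PD-1- libraries, and was lower in PD-1+ cells (-1.92, edgeR adjusted p = 0.00134). The other chain, Cd8a, was at 1.03 to 14.2 CPM in PD-1+ libraries and 0.568 to 5.18 CPM in PD-1- libraries. Its difference had the opposite sign and was not called (0.62, edgeR adjusted p = 0.508). The part of all these markers in the differences between populations and ages was not tested. Dendritic, neutrophil, erythroid and endothelial or stellate marker lists each summed to at most 24.9 CPM in any library. The library labelled 5-day replicate 3 was male in each population, with 601 Y-linked counts in PD-1+ cells and 672 in PD-1- cells, and the other 6 libraries had none and held 698 to 1842 counts of Xist. The labels do not say that replicates came from separate animals. At 5 days the replicates of each population differed in sex, so they came from different animals and their spread is not only technical. At 10 days the spread may be technical. The p-values measure the spread between these libraries. In bulk RNA, fewer cells that express a gene and less RNA per cell cannot be told apart.

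The genes lie apart in the genome on GRCm38, with coordinates from GENCODE M21, and each is protein-coding. Cxcr3 lies at chrX:101731535-101734269, Ccr7 at chr11:99144196-99155077 and Cxcr4 at chr1:128588199-128592293, all on the minus strand. The other 5 lie on chromosome 9. Cxcr5, at chr9:44511787-44561877 on the minus strand, stands far from the rest, and 110 bases of its exons overlap Bcl9l on the opposite strand. Whether counting used strand is not given in the sources used here, and some Cxcr5 counts may be reads of Bcl9l. Ccr4 at chr9:114490316-114504916 on the minus strand, Ccr8 at chr9:120092114-120094906 on the plus strand, Cxcr6 at chr9:123806475-123811760 on the plus strand and Ccr2 at chr9:124101950-124113557 on the plus strand follow each other along the chromosome, with 290.2 kb between Cxcr6 and Ccr2.

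PD-1+ cells differed from PD-1- cells in 7 of the 8 receptors. Over both ages Cxcr3, Cxcr6, Ccr2, Cxcr5, Ccr4 and Ccr8 were higher in PD-1+ cells, Ccr7 was lower, and Cxcr4 did not pass the test. A gene is called where the adjusted p of edgeR's quasi-likelihood test, with Benjamini-Hochberg adjustment over all tested genes, is below 0.05. In this comparison 41.4% of all tested genes were called in either direction. Against the 6 of 8 receptors called higher, 21.9% of all tested genes were called higher. Against the 1 of 8 called lower, 19.6% of all tested genes were called lower. The median log2 fold change was 3.23 over the 8 receptors and -0.0124 over all tested genes. Ccr8 passed the low-count filter only through the PD-1+ libraries, so its higher level there was fixed by the filter and is a description. It is still counted among the 6 called higher and in the median. The same 7 calls in the same directions were made at each age alone. At 10 days 29.3% of all tested genes were called, 16.4% higher and 12.9% lower, and at 5 days 34.3% were called, 17.6% higher and 16.7% lower.

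**Figure D1:**
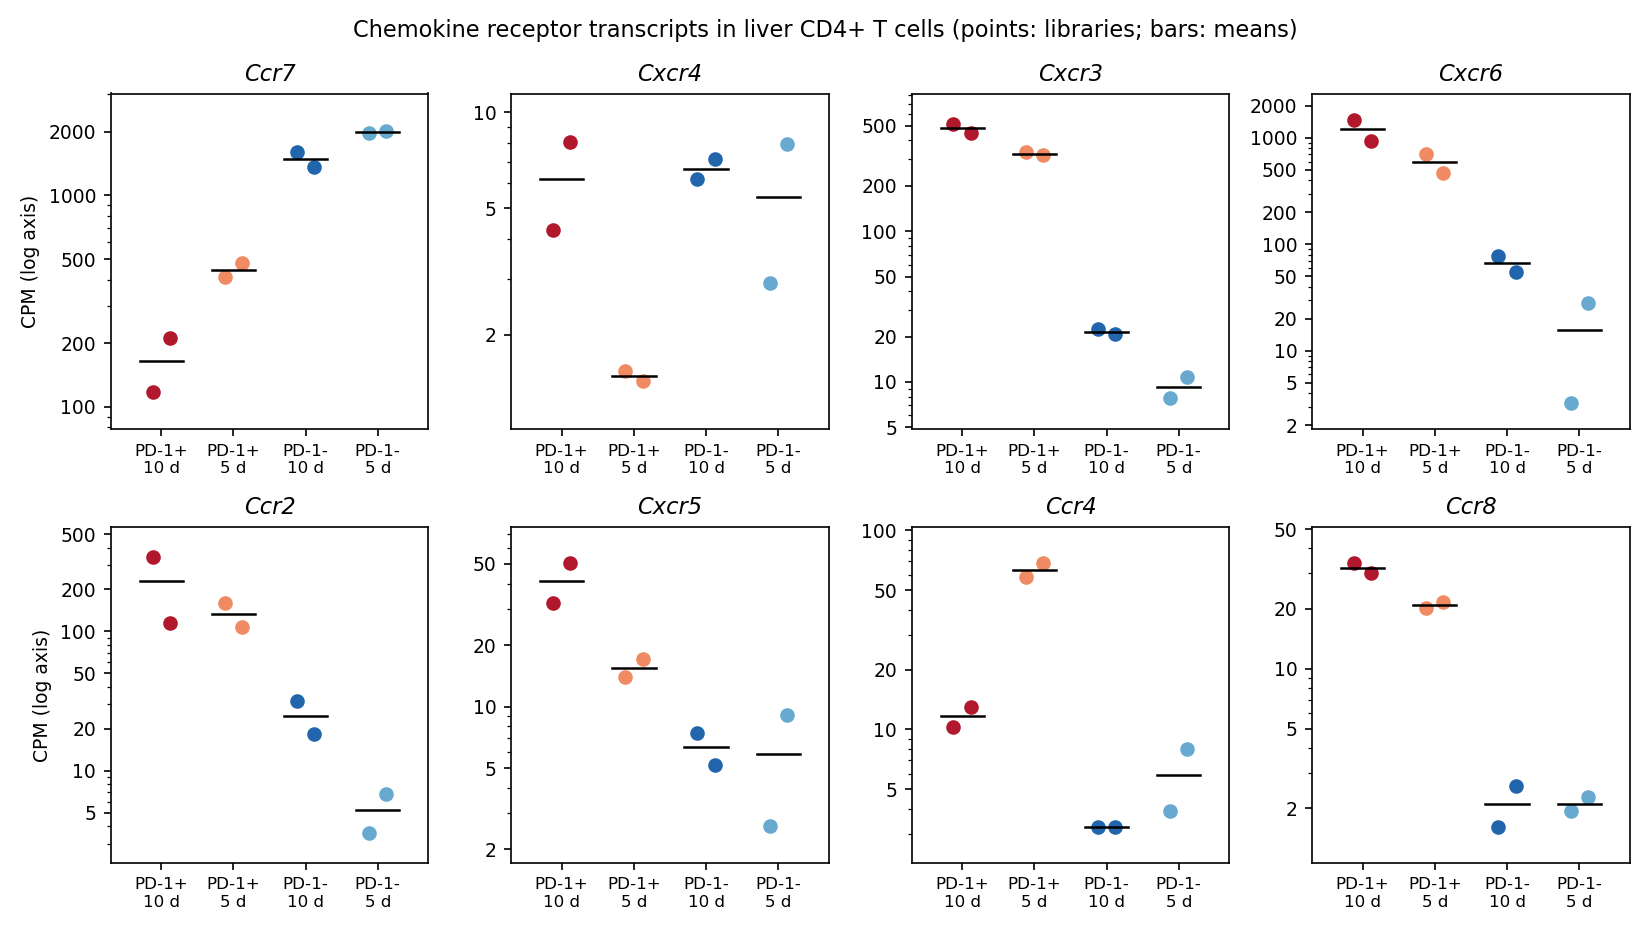
Level of each of the 8 receptors (CPM, log axis) in each library, by population and age. Each point is a library and each bar the mean of a group. Cxcr3, Cxcr6, Ccr2, Cxcr5, Ccr4 and Ccr8 sit higher and Ccr7 lower in all 4 PD-1+ libraries than in all 4 PD-1- libraries, and Cxcr4 stays at or below 8.08 CPM in every library. Over both ages 41.4% of all tested genes were called, and how many stood apart in this way was not counted. Ccr8 passed the low-count filter only through PD-1+ libraries, so its higher place is a description.

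Ccr7 is the receptor for CCL19 and CCL21 that brings naive and central memory T cells into lymph nodes. It measured 118 and 212 CPM in the 10-day PD-1+ libraries and 412 and 478 CPM in the 5-day PD-1+ libraries. The PD-1- libraries gave 1597 and 1360.1 CPM at 10 days and 1968 and 2023 CPM at 5 days. The 4 groups did not overlap: the lowest PD-1- library was higher than the highest PD-1+ library, and within each population the 10-day libraries were the lower ones. Ccr7 was lower in PD-1+ cells by a log2 fold change of -2.66 ± 0.24 over both ages (edgeR adjusted p = 1.05e-05; ± is the standard error of a log2 fold change throughout). At 10 days the log2 difference was -3.17 ± 0.24 (edgeR adjusted p = 5.92e-06), and at 5 days it was -2.16 ± 0.23 (edgeR adjusted p = 6.57e-05). Between ages Ccr7 fell in PD-1+ cells, with a 10-day against 5-day log2 fold change of -1.43 ± 0.23 (edgeR adjusted p = 0.00325). The same contrast in PD-1- cells was -0.43 ± 0.22 and was not called (edgeR adjusted p = 0.543).

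Cxcr4, the CXCL12 receptor that holds cells in bone marrow and acts in the thymus, was the one receptor with no call. Its counts were 12 and 23 in the 10-day PD-1+ libraries and 3 and 3 in the 5-day PD-1+ libraries. PD-1- cells gave 19 and 11 counts at 10 days and 9 and 14 counts at 5 days. The populations overlapped, and the 5-day PD-1+ libraries were the lowest of the 8. The log2 difference of PD-1+ against PD-1- cells was -0.76 ± 0.55 over both ages (edgeR adjusted p = 0.289), -0.09 ± 0.66 at 10 days (edgeR adjusted p = 0.935) and -1.76 ± 0.83 at 5 days (edgeR adjusted p = 0.112, unadjusted p = 0.0489).

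Cxcr3 binds CXCL9, CXCL10 and CXCL11 and marks T cells of the Th1 type. It measured 511 and 451 CPM in the 10-day PD-1+ libraries and 335 and 318 CPM in the 5-day PD-1+ libraries. Among PD-1- libraries the 10-day values were 22.3 and 20.8 CPM and the 5-day values 7.78 and 10.8 CPM. All 4 groups stood apart, with both 10-day groups above the 5-day group of the same population. Cxcr3 was higher in PD-1+ cells by 4.77 ± 0.18 on the log2 scale over both ages (edgeR adjusted p = 3.30e-10), by 4.47 ± 0.19 at 10 days (edgeR adjusted p = 6.89e-11) and by 5.17 ± 0.21 at 5 days (edgeR adjusted p = 1.32e-10). It is X-linked, and the male and female libraries of a 5-day group were close, at 318 CPM (male) and 335 CPM (female) in PD-1+ cells and at 10.8 CPM (male) and 7.78 CPM (female) in PD-1- cells.

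The upstream sequence of Cxcr3 is shown because Tbx21, the Th1 factor that binds T-box sites, moved with it (its values stand with the transcription factors). The stretch is chrX:101734270-101734397 on the minus strand of GRCm38.p6, taken from RefSeq promoters (of the 250 bases before the RefSeq start, those that precede any GENCODE exon). The motifs searched on both strands were TCACAC for T-box factors, TGTGGT for RUNX factors, TGANTCA for AP-1 factors and AGATAA for GATA factors. Capitals mark TCACAC.
Cxcr3 upstream: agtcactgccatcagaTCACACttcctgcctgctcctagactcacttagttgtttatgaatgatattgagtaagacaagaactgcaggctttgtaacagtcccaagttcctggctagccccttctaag
The motif occurs 1 time here, and 6.54% of 32851 promoters held it in a window of the same length. No match to the other 3 motifs was in this stretch. A match is a run of letters and not a measured site.

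Cxcr6, the CXCL16 receptor that keeps lymphocytes in liver sinusoids, had the highest level per length of the 8 in 10-day PD-1+ cells. It measured 1479.8 and 937 CPM in the 10-day PD-1+ libraries and 706 and 470.2 CPM in the 5-day PD-1+ libraries. PD-1- cells held 78.4 and 55.3 CPM at 10 days and 3.24 and 28.4 CPM at 5 days. The PD-1+ and PD-1- libraries did not overlap, but the replicates of a group were far apart, most of all the 5-day PD-1- libraries with 10 and 50 counts. Cxcr6 was higher in PD-1+ cells by 4.68 ± 0.64 on the log2 scale over both ages (edgeR adjusted p = 0.00216), by 4.16 ± 0.83 at 10 days (edgeR adjusted p = 0.0257) and by 5.41 ± 0.95 at 5 days (edgeR adjusted p = 0.0160). With the replicate number as a block in the model, the calls at 10 days and at 5 days alone were lost. The call over both ages was kept with that block and without each library in turn. At 10 days alone it was lost without any 1 of the 4 libraries of that age or either 5-day PD-1+ library (edgeR adjusted p 0.0633 to 0.142), and with no filter on low counts (edgeR adjusted p = 0.0732), and at 5 days without 5-day PD-1+ replicate 2 (edgeR adjusted p = 0.0753) or replicate 3 (edgeR adjusted p = 0.0536). Natural killer T cells also carry this receptor, and the summed level of 3 of their markers (Zbtb16, Klrb1c, Cd160) was 54.6 to 65.0 CPM in PD-1+ libraries and 6.16 to 36.4 CPM in PD-1- libraries. Of these markers Cd160 was higher in PD-1+ cells, Klrb1c was lower, and Zbtb16 did not pass the test. Klrb1c passed the low-count filter only through PD-1- libraries, so its lower level in PD-1+ cells is a description. The part of these markers in the Cxcr6 difference was not tested.

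The upstream sequence of Cxcr6 is shown because Runx3, a RUNX family factor of tissue-dwelling and cytotoxic T cells, was higher in PD-1+ cells as well (its values stand with the transcription factors). The stretch is chr9:123806227-123806474 on the plus strand of GRCm38.p6 (RefSeq promoters). Capitals mark ACCACA, the reverse form of the RUNX motif TGTGGT.
Cxcr6 upstream: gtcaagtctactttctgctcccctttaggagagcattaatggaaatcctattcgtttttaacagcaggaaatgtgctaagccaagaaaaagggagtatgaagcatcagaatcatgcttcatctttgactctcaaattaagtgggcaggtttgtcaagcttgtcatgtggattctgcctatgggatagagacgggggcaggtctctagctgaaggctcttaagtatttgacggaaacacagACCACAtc
It held 1 match, as did 14.0% of 32851 promoters over the same window, and no match to the other 3 motifs.

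Ccr2, the CCL2 receptor of inflammatory monocytes and of memory T cells, measured 344 and 115 CPM in the 10-day PD-1+ libraries and 161 and 107 CPM in the 5-day PD-1+ libraries. Its PD-1- levels were 31.4 and 18.2 CPM at 10 days and 3.56 and 6.81 CPM at 5 days. The populations did not overlap at either age, whereas the 10-day and 5-day PD-1+ libraries did, and 10-day PD-1+ replicate 1 stood above the other 3. Ccr2 was higher in PD-1+ cells by 3.76 ± 0.54 on the log2 scale over both ages (edgeR adjusted p = 0.0016), by 3.15 ± 0.67 at 10 days (edgeR adjusted p = 0.0234) and by 4.77 ± 0.84 at 5 days (edgeR adjusted p = 0.0109). At 10 days alone the call was lost without either 10-day PD-1- library, either 5-day PD-1- library or 5-day PD-1+ replicate 3 (edgeR adjusted p 0.0540 to 0.129). At 5 days it was lost without either 5-day PD-1- library or 5-day PD-1+ replicate 2 (edgeR adjusted p 0.0526 to 0.119). Monocytes and macrophages also express Ccr2, and 10 of their markers summed to 34.4 to 62.3 CPM in PD-1+ libraries and 26.9 to 53.9 CPM in PD-1- libraries. At 10 days the sum was 51.3 to 62.3 CPM in PD-1+ libraries and 40.5 to 48.8 CPM in PD-1- libraries. At 5 days it was 34.4 to 35.0 CPM and 26.9 to 53.9 CPM. Of 4 tested markers, Cd5l was higher in PD-1+ cells and Cd68 was lower. Cd5l passed the low-count filter only through PD-1+ libraries, so its higher level there is a description. The part of these markers in the Ccr2 difference was not tested.

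Cxcr5 binds CXCL13 and takes T cells into B cell follicles. It measured 32.1 and 50.3 CPM in the 10-day PD-1+ libraries and 13.9 and 17.2 CPM in the 5-day PD-1+ libraries. The PD-1- libraries gave 7.45 and 5.20 CPM at 10 days and 2.59 and 9.09 CPM at 5 days. The 2 PD-1+ groups stood apart from each other and from all PD-1- libraries, and the PD-1- ages overlapped. Cxcr5 was higher in PD-1+ cells by 2.15 ± 0.38 on the log2 scale over both ages (edgeR adjusted p = 0.000432), by 2.64 ± 0.47 at 10 days (edgeR adjusted p = 0.000434) and by 1.54 ± 0.51 at 5 days (edgeR adjusted p = 0.0286). The 5-day call was lost without 5-day PD-1- replicate 2, where the log2 difference was 0.78 (edgeR adjusted p = 0.310), and without 5-day PD-1+ replicate 2 (edgeR adjusted p = 0.0621) or replicate 3 (edgeR adjusted p = 0.127). B cells also express Cxcr5, and 7 of their markers summed to 32.0 to 55.9 CPM in PD-1+ libraries and 11.3 to 81.8 CPM in PD-1- libraries. The 5 tested B cell markers had edgeR adjusted p-values of 0.101 to 0.639 over both ages, and their part in the Cxcr5 difference was not tested.

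Ccr4, the receptor for CCL17 and CCL22 found on Th2 and skin-homing T cells, measured 10.3 and 13.0 CPM in the 10-day PD-1+ libraries and 58.2 and 68.7 CPM in the 5-day PD-1+ libraries. Among PD-1- libraries the 10-day values were 3.24 and 3.25 CPM and the 5-day values 3.89 and 7.95 CPM. The 5-day PD-1+ libraries were the highest and the 10-day PD-1- libraries the lowest, with no overlap between groups. Ccr4 was higher in PD-1+ cells by 2.83 ± 0.37 on the log2 scale over both ages (edgeR adjusted p = 2.62e-05), by 1.83 ± 0.46 at 10 days (edgeR adjusted p = 0.0059) and by 3.49 ± 0.39 at 5 days (edgeR adjusted p = 4.05e-06). The 10-day call was lost without 10-day PD-1- replicate 1 (edgeR adjusted p = 0.0623).

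Ccr8, bound in mice by CCL1 and CCL8 and carried by Th2 and tissue T cells, measured 33.8 and 30.2 CPM in the 10-day PD-1+ libraries and 20.1 and 21.5 CPM in the 5-day PD-1+ libraries. PD-1- cells held 1.62 and 2.60 CPM at 10 days and 1.94 and 2.27 CPM at 5 days, from 4 to 6 counts per library. The PD-1+ ages stood apart and the PD-1- ages overlapped. Since Ccr8 passed the low-count filter only through PD-1+ libraries, its higher level there was fixed by the filter and is a description. Ccr8 was higher in PD-1+ cells by 3.64 ± 0.34 on the log2 scale over both ages (edgeR adjusted p = 9.67e-07), by 3.98 ± 0.47 at 10 days (edgeR adjusted p = 6.49e-06) and by 3.29 ± 0.47 at 5 days (edgeR adjusted p = 5.09e-05).

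The upstream sequences of Ccr4 and Ccr8 are shown together because both receptors are known from Th2 cells, yet their levels took different courses with age in PD-1+ cells. The Ccr4 stretch, which lies inside the span of the GENCODE gene model, is chr9:114496563-114496794 on the minus strand, and the Ccr8 stretch is chr9:120091883-120092113 on the plus strand (RefSeq promoters, GRCm38.p6). Capitals mark an AP-1 motif (TGANTCA) in Ccr4 and a GATA motif (AGATAA, reverse TTATCT) in Ccr8.
Ccr4 upstream: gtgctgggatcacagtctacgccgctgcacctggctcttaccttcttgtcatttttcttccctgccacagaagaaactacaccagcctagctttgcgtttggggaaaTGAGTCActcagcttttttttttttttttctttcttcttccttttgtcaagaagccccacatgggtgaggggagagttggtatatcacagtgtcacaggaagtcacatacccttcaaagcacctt
Ccr8 upstream: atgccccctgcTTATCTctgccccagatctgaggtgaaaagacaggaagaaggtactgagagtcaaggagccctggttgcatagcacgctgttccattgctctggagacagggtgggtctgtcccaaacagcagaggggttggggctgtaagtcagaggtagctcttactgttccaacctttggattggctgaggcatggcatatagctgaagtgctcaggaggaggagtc
The Ccr4 stretch held 1 AP-1 match, as did 6.39% of 32851 promoters over its window, and no GATA, T-box or RUNX match. The Ccr8 stretch held 1 GATA match, as did 9.52% of promoters over its window, and none of the other 3 motifs.

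**Figure D2:**
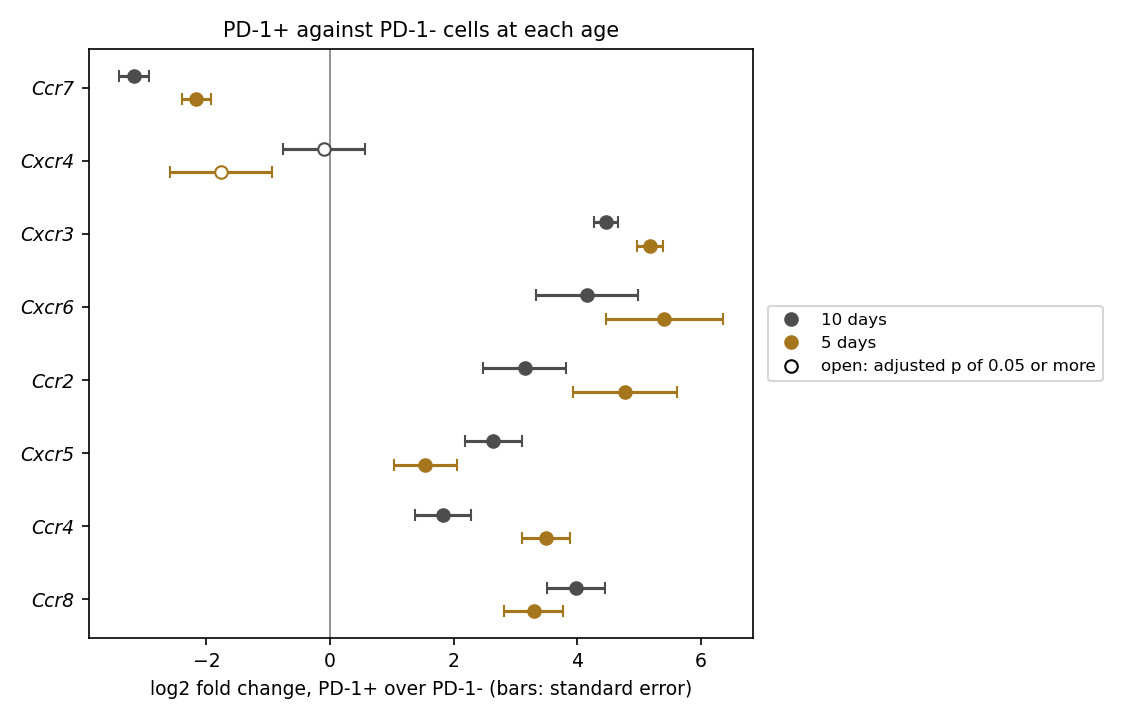
Log2 fold change of PD-1+ against PD-1- cells for each receptor at 10 days and at 5 days, with its standard error. Ccr7 lies below 0 at both ages (-3.17 at 10 days and -2.16 at 5 days), Cxcr3, Cxcr6 and Ccr2 lie at or above 3.15 at both ages, and Cxcr4 is the receptor whose values were not called.

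With age, Ccr7 and Ccr4 fell and Cxcr3 and Cxcr5 rose in PD-1+ cells. Of all tested genes 14.4% were called in this contrast. The calls were 2 of 8 receptors higher at 10 days, where 7.39% of all tested genes were called higher, and 2 of 8 lower, where 6.98% were called lower. The 10-day against 5-day log2 fold change was -2.44 ± 0.35 for Ccr4 (edgeR adjusted p = 0.000281), 0.56 ± 0.15 for Cxcr3 (edgeR adjusted p = 0.0229) and 1.40 ± 0.43 for Cxcr5 (edgeR adjusted p = 0.0386), beside the value of -1.43 for Ccr7 given above. Cxcr6 (1.04 ± 0.72, edgeR adjusted p = 0.435), Ccr2 (0.78 ± 0.59, edgeR adjusted p = 0.470), Ccr8 (0.62 ± 0.35, edgeR adjusted p = 0.264) and Cxcr4 (2.02 ± 0.80, edgeR adjusted p = 0.106) did not pass the test. The Ccr7 and Ccr4 calls were kept without each library in turn. The Cxcr3 call was lost without 10-day PD-1+ replicate 1 or either 5-day PD-1+ library (edgeR adjusted p 0.147 to 0.168), and the Cxcr5 call without 10-day PD-1+ replicate 2 or either 5-day PD-1+ library (edgeR adjusted p 0.134 to 0.257) and with DESeq2 (adjusted p = 0.0669). Ccr2 passed without 10-day PD-1+ replicate 2, with a log2 fold change of 1.36 (edgeR adjusted p = 0.00845).

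In PD-1- cells 1 of 8 receptors was called between ages, Cxcr3, which was higher at 10 days by 1.27 ± 0.23 on the log2 scale (edgeR adjusted p = 0.0265). In this contrast 0.27% of all tested genes were called, 0.148% higher and 0.122% lower. The Cxcr3 call was lost without either 10-day PD-1- library or 5-day PD-1- replicate 2 (edgeR adjusted p 0.0886 to 0.341). Cxcr6 and Ccr2 had larger but less even differences, of 2.29 ± 0.94 (edgeR adjusted p = 0.511) and 2.40 ± 0.92 (edgeR adjusted p = 0.465). Cxcr6 passed without 5-day PD-1- replicate 3, the male library (log2 fold change 4.38, edgeR adjusted p = 0.0326), and Ccr2 passed without 10-day PD-1+ replicate 1 (edgeR adjusted p = 0.0106) or replicate 2 (edgeR adjusted p = 0.0143). Ccr4 (-0.77 ± 0.51), Cxcr5 (0.30 ± 0.56), Cxcr4 (0.35 ± 0.69) and Ccr8 (-0.06 ± 0.63) had edgeR adjusted p-values of 0.638 to 0.989.

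The test of whether the PD-1 difference itself changed with age called 0 of the 8 receptors by edgeR, where 2.12% of all tested genes were called, 1.2% higher and 0.923% lower. At an edgeR unadjusted p below 0.05 there were 3 receptors (Ccr7, Cxcr3 and Ccr4), beside 1728 of all 11490 tested genes. DESeq2 called 1 receptor, Ccr7, of the 4 to which it gave an adjusted p. The difference at 10 days minus that at 5 days was -1.0 ± 0.32 for Ccr7 (edgeR adjusted p = 0.159), -1.66 ± 0.64 for Ccr4 (edgeR adjusted p = 0.206) and -0.70 ± 0.28 for Cxcr3 (edgeR adjusted p = 0.232). The other 5 receptors had edgeR adjusted p-values of 0.496 to 0.732. Thus the age changes of Ccr7, Ccr4, Cxcr3 and Cxcr5 that were called in PD-1+ cells are not shown to differ from those in PD-1- cells. Ccr7 passed without 10-day PD-1+ replicate 2 (-1.49, edgeR adjusted p = 0.000868), and Ccr2 passed without 10-day PD-1+ replicate 1 (-2.61, edgeR adjusted p = 0.0230).

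**Figure D3:**
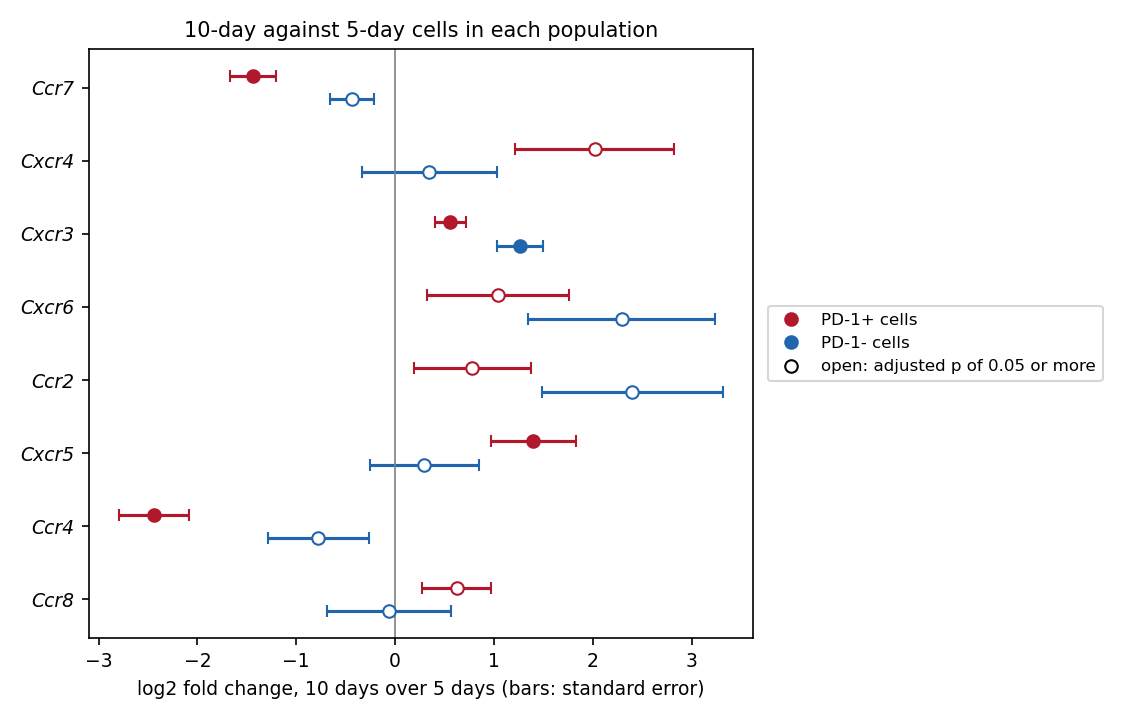
Log2 fold change of 10-day against 5-day cells for each receptor in PD-1+ and in PD-1- cells, with its standard error. In PD-1+ cells Ccr7 (-1.43) and Ccr4 (-2.44) lie below 0, and Cxcr3 (0.56) and Cxcr5 (1.40) above it. In PD-1- cells Cxcr3 (1.27) is the called receptor.

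Levels of different receptors were compared per length, as CPM per kilobase of annotated exon. In 10-day PD-1+ cells the order was Cxcr6 (626 ± 199 CPM per kb; SD, n = 2), Cxcr3 (278 ± 24.7), Ccr7 (83.3 ± 33.7), Ccr2 (33.9 ± 24.0), Ccr8 (27.3 ± 2.17), Cxcr5 (12.4 ± 3.86), Ccr4 (3.77 ± 0.611) and Cxcr4 (3.42 ± 1.49). Of these neighbours, Ccr2 and Ccr8, and Ccr4 and Cxcr4, overlapped between libraries. In 5-day PD-1+ cells Cxcr6 (305 ± 86.4 CPM per kb) was followed by Ccr7 (225 ± 23.5) and Cxcr3 (188 ± 6.77), with Ccr4, Ccr2 and Ccr8 near each other and Cxcr4 last.

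In PD-1- cells Ccr7 led by far, at 747 ± 84.5 CPM per kb at 10 days and 1009 ± 19.9 CPM per kb at 5 days (SD, n = 2 each). Cxcr6 came next at 10 days with 34.6 CPM per kb and then Cxcr3 with 12.5 CPM per kb. At 5 days Cxcr6 (8.19 ± 9.21 CPM per kb) and Cxcr3 (5.36 CPM per kb) overlapped. Exon length here is the union over annotated transcripts, which is longest for Ccr2 (6760 bases), so its level per kilobase is a low estimate.

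The summed level of the 8 receptors overlapped between the populations, while the share taken by Ccr7 did not. The sum was 2533 and 1816 CPM in 10-day PD-1+ libraries and 1707 and 1482 CPM in 5-day PD-1+ libraries, against 1747 and 1473 CPM in 10-day PD-1- libraries and 1993 and 2096 CPM in 5-day PD-1- libraries. Ccr7 made up 4.64 and 11.7% of that sum in 10-day PD-1+ libraries and 24.1 and 32.2% in 5-day PD-1+ libraries, against 91.4 and 92.4% in 10-day PD-1- libraries and 98.7 and 96.5% in 5-day PD-1- libraries. The highest PD-1+ library was at 32.2% and the lowest PD-1- library at 91.4%. Within each library, the ratio of Cxcr3 to Ccr7 counts was 4.35 and 2.13 in 10-day PD-1+ cells and 0.811 and 0.665 in 5-day PD-1+ cells. In PD-1- cells it was 0.0140 and 0.0153 at 10 days and 0.00395 and 0.00533 at 5 days. Cxcr3 counts thus exceeded Ccr7 counts only in the 10-day PD-1+ libraries.

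Other pairs behaved differently. The ratio of Ccr4 to Ccr8 counts was 0.305 and 0.430 in 10-day PD-1+ libraries and 2.90 and 3.20 in 5-day PD-1+ libraries, so the order of these counts was opposite at the 2 ages. In PD-1- libraries it was 2.00 and 1.25 at 10 days and 2.00 and 3.50 at 5 days, from few counts. The ratio of Cxcr6 to Cxcr3 counts was 2.89 and 2.08 in 10-day PD-1+ libraries and 2.11 and 1.48 in 5-day PD-1+ libraries. It was 3.51 and 2.66 in 10-day PD-1- libraries and 0.417 and 2.63 in 5-day PD-1- libraries, so 7 of 8 libraries held more Cxcr6 than Cxcr3 counts.

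**Figure D4:**
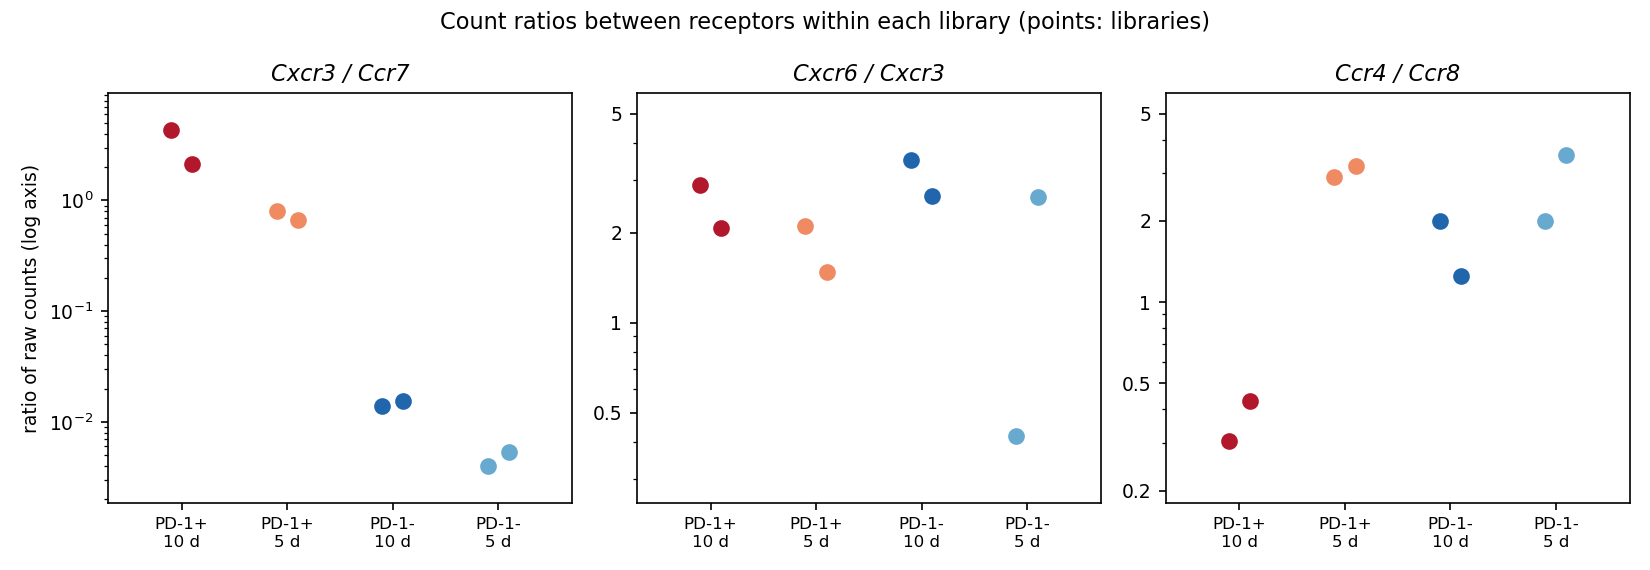
Count ratios of receptor pairs within each library (log axis), by population and age, each point a library. The Cxcr3 to Ccr7 ratio lies at 4.35 and 2.13 in 10-day PD-1+ libraries and at 0.0153 or below in all PD-1- libraries, and the Ccr4 to Ccr8 ratio is below 1 only in 10-day PD-1+ libraries.

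The genes whose levels were most like those of each receptor over the 8 libraries were named by Pearson's r of log2 CPM among 7000 genes, as a description. Closest to Ccr7 were Ifngr2 (r = 0.993), Pik3r5 (0.992) and S1pr1 (0.991). Closest to Cxcr3 were Cd44 (0.997), Myo1f and Adora2a (0.996 each), and closest to Ccr8 were Nrp1 and Ptpn7 (0.996 each) and Ahnak (0.995). The genes most like Ccr4 were Psmc6 (0.989), Ran (0.988) and Hprt (0.985), and those most like Cxcr5 were Nr4a3 (0.989), Ccnc (0.985) and Mmd (0.979). Cdc14a was near the top for Cxcr6 (0.990, with Trerf1 at 0.989) and for Ccr2 (0.979, with Slc38a10 at 0.980 and Tmem263 at 0.979). Cxcr4 had the lowest values, with Polr3a at 0.966, Zfp287 at 0.952 and Tmx4 at 0.940. The 8 points share population, age and depth. The text does not print every gene that the rule gives.

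Among 14 other chemokine receptors, 6 had enough counts to be tested. Xcr1, Ccrl2, Ccr1, Ccr3 and Cx3cr1 reached at most 2.27 CPM in any PD-1- library and so passed the filter, which required about 3.88 CPM, only through PD-1+ libraries. A higher level in PD-1+ cells was thus fixed by the filter for these 5, and their values are given as a description. Xcr1, the receptor of XCL1, was at 19.6 to 49.5 CPM in PD-1+ libraries and 0 to 1.62 CPM in PD-1- libraries (log2 fold change 5.04 ± 0.41, edgeR adjusted p = 2.13e-07). Ccrl2, an atypical receptor that binds chemerin, was at 15.3 to 35.8 CPM in PD-1+ libraries and 0.324 to 2.27 CPM in PD-1- libraries (4.61 ± 0.49, edgeR adjusted p = 3.81e-06). Ccr1, a receptor of CCL3 and other inflammatory chemokines, was higher as well (4.08 ± 0.69, edgeR adjusted p = 0.000282). Ccr9, the gut-homing and thymic receptor of CCL25, was the one that fell, at 6.69 to 14.2 CPM in PD-1+ libraries and 57.9 to 131 CPM in PD-1- libraries (-3.14 ± 0.32, edgeR adjusted p = 5.96e-06). Those named after their values were seen are Cx3cr1 and Ccr3, since they were the 2 of 6 that edgeR called between ages in PD-1+ cells (adjusted p 0.00447 and 0.0344). Of all tested genes 14.4% were called between ages in PD-1+ cells. DESeq2 called 0 of the 4 genes to which it gave an adjusted p in this contrast, with 0.536 for Cx3cr1 and none for Ccr3. At an edgeR unadjusted p below 0.05 there were 4 of the 6, beside 3249 of all 11490 tested genes. The 5-day PD-1+ libraries held 0 and 3 counts of Cx3cr1 and 2 and 7 counts of Ccr3. Cx3cr1, the fractalkine receptor, measured 38.5 and 13.4 CPM in 10-day PD-1+ libraries, 0 and 1.43 CPM in 5-day PD-1+ libraries, and had no count in any PD-1- library. Pooled over libraries it was at least 43.9-fold higher in PD-1+ cells, against a floor of 3 counts over the PD-1- group. Ccr3, the eotaxin receptor, measured 13.0 and 15.0 CPM in 10-day PD-1+ libraries and 1.03 and 3.34 CPM in 5-day PD-1+ libraries, with 1 count in all PD-1- libraries together.

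Of 15 ligands of the 8 receptors, 3 could be tested. Cxcl10 and Ccl1 passed the filter only through PD-1+ libraries, so that their higher level there is a description. Cxcl10, a ligand of CXCR3, was at 25.3 to 41.2 CPM in PD-1+ libraries and 0.568 to 2.60 CPM in PD-1- libraries (log2 fold change 4.68 ± 0.42, edgeR adjusted p = 6.05e-07). Ccl1, a ligand of CCR8, had 63 counts over the PD-1+ libraries and 1 count over the PD-1- libraries. Within PD-1+ cells it was at 1.05 to 1.42 CPM at 10 days and 11.9 to 15.96 CPM at 5 days, and fell with age (-3.44 ± 0.81, edgeR adjusted p = 0.00989). That call was lost without any 1 of the 4 PD-1+ libraries (edgeR adjusted p up to 0.155). Cxcl16, the ligand of CXCR6, stayed at 0.356 to 3.60 CPM in PD-1+ libraries and 0.324 to 5.68 CPM in PD-1- libraries and was not called (-0.35 ± 0.93, edgeR adjusted p = 0.795).

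Genes of lymph node homing, egress and tissue retention moved in both directions, with 3 of 13 higher, 4 lower and 6 not called over both ages, where 21.9% of all tested genes were higher and 19.6% lower, and a median log2 fold change of -0.199. The share called higher is near that of all tested genes. Itga1, the collagen-binding integrin chain of tissue-resident cells, was at 62.2 to 88.3 CPM in 10-day PD-1+ libraries, 9.78 to 11.9 CPM in 5-day PD-1+ libraries and 0.568 to 3.90 CPM in PD-1- libraries (4.77 ± 0.39, edgeR adjusted p = 2.42e-07). It is among the 3 called higher, but it passed the low-count filter only through PD-1+ libraries, so its higher level there is a description. The LFA-1 chains that bind ICAM-1 were higher too, Itgb2 by 1.07 ± 0.12 (edgeR adjusted p = 7.81e-06) and Itgal by 1.14 ± 0.15 (edgeR adjusted p = 3.45e-05). S1pr1, the receptor for egress into blood, was at 68.0 to 134 CPM in PD-1+ libraries and 312 to 374 CPM in PD-1- libraries (-1.83 ± 0.15, edgeR adjusted p = 2.80e-07).

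Between ages in PD-1+ cells, 3 of the 13 rose (Itga4, Itga1 and Itgal) and 4 fell (among them S1pr1, Cd69 and Gpr183), where the shares of all tested genes were 7.39% and 6.98%. In PD-1- cells edgeR called 0 of the 13, with 4 at an unadjusted p below 0.05, and DESeq2 called 0 of the 12 to which it gave an adjusted p. Of all 11490 tested genes, edgeR called 0.27% between ages in PD-1- cells, and 1219 had an unadjusted p below 0.05. The Itgal call was lost without 5-day PD-1+ replicate 3 (edgeR adjusted p = 0.0547). Among signalling genes below the receptors, 7 of 23 were higher, 4 lower and 12 not called in PD-1+ cells over both ages, beside the same shares of 21.9% and 19.6% of all tested genes, with a median log2 fold change of 0.0522. Rgs1, which dampens chemokine receptor signals, was at 683 to 899.7 CPM in PD-1+ libraries and 48.6 to 100.5 CPM in PD-1- libraries (3.26 ± 0.21, edgeR adjusted p = 7.00e-08). Rgs16, of the same family, was at 305 to 424 CPM in 10-day PD-1+ libraries, 62.3 to 62.5 CPM in 5-day PD-1+ libraries and 2.27 to 4.54 CPM in PD-1- libraries (5.56 ± 0.46, edgeR adjusted p = 1.87e-05). Rgs10 (-1.55 ± 0.16, edgeR adjusted p = 3.57e-06) and Pik3r5, a subunit of the kinase that answers G protein signals (-1.07 ± 0.15, edgeR adjusted p = 6.15e-05), were lower.

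Of 9 tested transcription factors known to act on these receptors, 4 were higher, 2 lower and 3 not called over both ages, beside 21.9% of all tested genes higher and 19.6% lower, with a median log2 fold change of 0.841. Tbx21 was at 180.0 to 329 CPM in PD-1+ libraries and 2.27 to 17.6 CPM in PD-1- libraries (5.32 ± 0.31, edgeR adjusted p = 1.28e-07). Batf was at 143 to 192 CPM in PD-1+ libraries and 39.5 to 69.3 CPM in PD-1- libraries (1.74 ± 0.16, edgeR adjusted p = 6.78e-07). Foxo1, at 51.3 to 74.6 CPM in PD-1+ libraries and 171 to 220.2 CPM in PD-1- libraries, was lower (-1.59 ± 0.16, edgeR adjusted p = 1.75e-06). Its target Klf2, which drives S1pr1, was lower as well (-1.93 ± 0.30, edgeR adjusted p = 0.000125). Runx3 and Gata3, named here for the motif families and not by the rule on lists, were the other 2 higher ones. Runx3 was at 62.7 to 93.6 CPM in PD-1+ libraries and 36.6 to 54.4 CPM in PD-1- libraries (0.84 ± 0.17, edgeR adjusted p = 0.00116), and Gata3 was at 260.4 to 351 CPM in PD-1+ libraries and 145 to 219 CPM in PD-1- libraries (0.73 ± 0.15, edgeR adjusted p = 0.00145). Between ages edgeR called 0 of the 9 in PD-1+ cells (1 at an unadjusted p below 0.05, and 1 by DESeq2 of 8 with an adjusted p) and 0 in PD-1- cells (3 at an unadjusted p below 0.05, and 2 by DESeq2 of 7 with an adjusted p). Of all 11490 tested genes, edgeR called 14.4% between ages in PD-1+ cells and 0.27% in PD-1- cells. At an edgeR unadjusted p below 0.05 there were 3249 and 1219 genes.

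**Figure D5:**
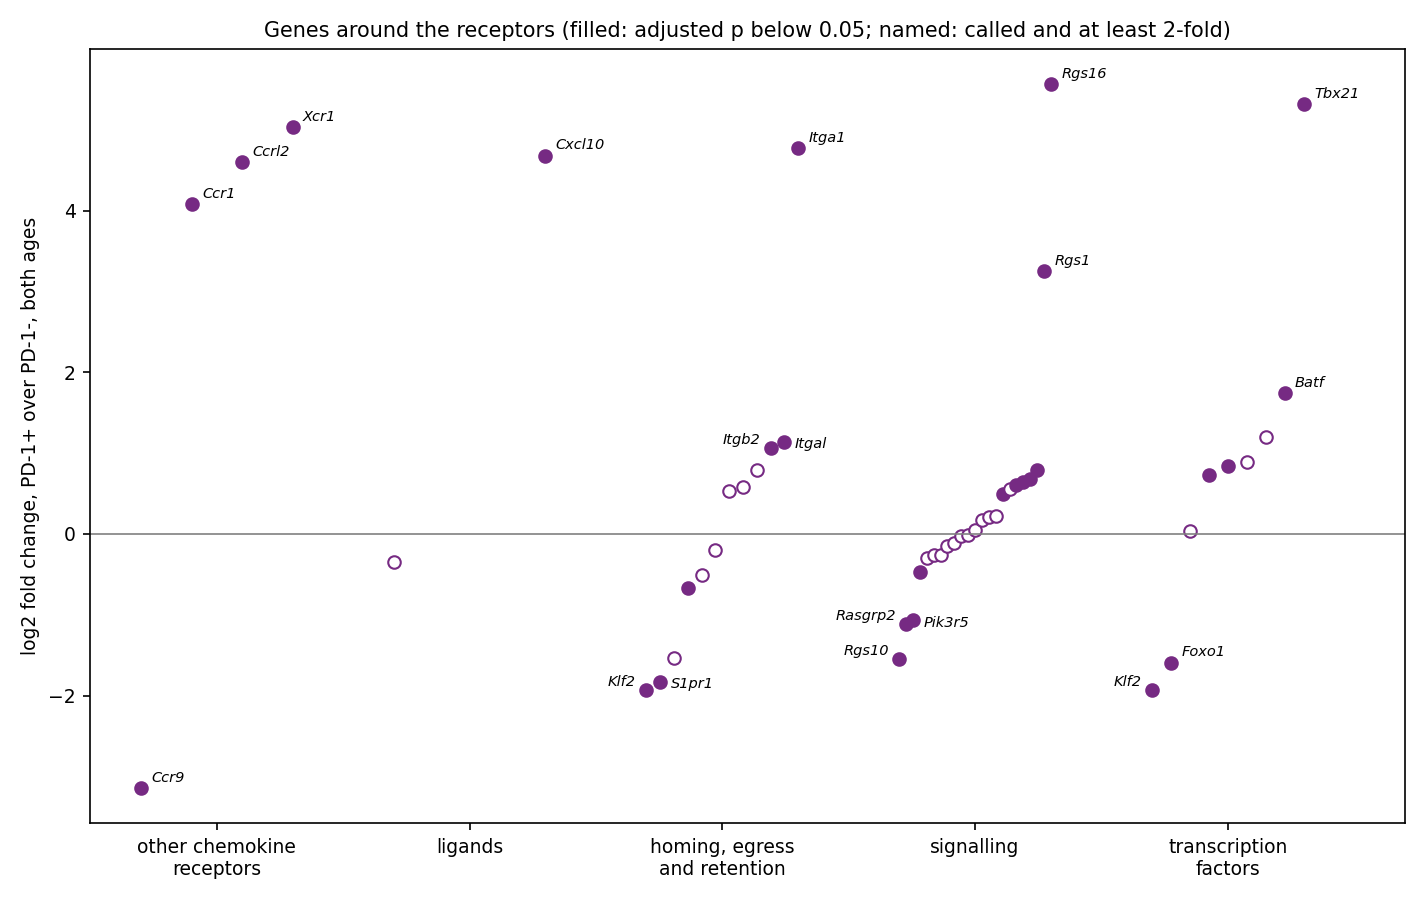
Log2 fold change of PD-1+ against PD-1- cells over both ages for the tested genes of each list, each point a gene. Genes with 3 counts or fewer in all PD-1- libraries together (Ccr3, Cx3cr1 and Ccl1) are left out because their fitted fold is no bound, and 1 further gene of the homing list is not drawn. The other receptors lie above 0 except Ccr9 (-3.14), and the homing list holds genes on both sides, from Klf2 at -1.93 to Itga1 at 4.77. Itga1, Cxcl10, Xcr1, Ccrl2 and Ccr1 passed the low-count filter only through PD-1+ libraries, so their places above 0 are a description.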

How the data were processed

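The authors deposited raw counts by gene symbol, in 1 table of 8 library columns. The submitters' processing notes name STAR 2.5.4, featureCounts and mm10. Annotation, strand use and multi-mapping rules: not given in the sources used here. Columns were matched to samples by title, with 0 columns and 0 rows left unmatched or unnamed.

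Counts of the whole table were tested with edgeR 4.0.16 in R 4.3.3 (filterByExpr, TMM scaling, robust quasi-likelihood F tests, Benjamini-Hochberg over 11490 genes, called below 0.05). The difference over both ages came from a model with age and PD-1 as terms, and a model of the 4 groups gave the other contrasts, with the libraries of all groups sharing 1 estimate of spread. Each standard error is the size of the log2 fold change over the square root of F. CPM were scaled to the tested genes' total count and the TMM factor. Alternatives were other scalings, no filter, DESeq2 1.42.0, a replicate block and each library left out. Replicates of a group differed by a chi-square per degree of freedom of 4 to 8.61. On simulated data for PD-1 over both ages (10987 genes), 53 of 95 genes changed 2-fold and 86 of 95 changed 4-fold were called, with 12 false calls. The simulation had no age effect and took its spread from the fit to these data. It also changed far fewer genes than the 41.4% called here, so its rates need not hold for these data.

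The members, gene lists and tests were chosen with earlier results of these data known. Of each further list, up to 4 tested genes with the smallest p for PD-1 over both ages are named, and for each receptor the 3 genes most alike in log2 CPM (prior count 2, mean log2 CPM of at least 4). Promoters came from RefSeq (GRCm38.p6) and matched 6 of 8 receptors, and those of 4 are shown. Some results are not reported here.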

Additional observations from a re-analysis of the deposited data

Results flagged for a closer look

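In 10 genes printed or checked beside the receptors, the log2 difference of PD-1+ against PD-1- cells at 10 days minus that at 5 days was called by edgeR's interaction test. All were named after their values were seen, except Rgs16, which the rule on lists names, and Cd3e, Cd3g, Cd8b1 and Cd5l, markers used as checks of the sorted cells. Gpr183, an oxysterol receptor that positions lymphocytes, had a value of -2.68 (edgeR adjusted p = 0.000478), and this call was kept without each library in turn. Cd69, which blocks egress by holding S1PR1 inside the cell, had -1.37 (edgeR adjusted p = 0.00622), a call lost without 5-day replicate 3 of both populations (edgeR adjusted p = 0.0512). Itga4, the alpha-4 integrin chain, had 1.25 (edgeR adjusted p = 0.00663), a call lost without 5-day PD-1+ replicate 2 (edgeR adjusted p = 0.0635). Rgs16 had 2.56 (edgeR adjusted p = 0.0171), a call lost without 10-day PD-1+ replicate 1, 10-day PD-1- replicate 2 or 5-day PD-1- replicate 2 (edgeR adjusted p up to 0.358). Rgs2, another regulator of G protein signals, had 1.55 (edgeR adjusted p = 0.0124), a call lost without either 10-day PD-1- library or 5-day PD-1+ replicate 2 (edgeR adjusted p up to 0.0843). Rasgrp2, which activates the integrin switch Rap1, had -1.15 (edgeR adjusted p = 0.0339), a call lost without any 1 library except 10-day PD-1+ replicate 2 and 5-day PD-1- replicate 2 (edgeR adjusted p up to 0.232). Cd3e, a chain of the T cell receptor complex, had 1.08 (edgeR adjusted p = 0.0159), a call lost without 10-day replicate 1 of either population or either 5-day PD-1+ library (edgeR adjusted p up to 0.0976). Cd3g, of the same complex, had 1.06 (edgeR adjusted p = 0.0392), a call lost without 10-day replicate 1 of either population, either 5-day PD-1+ library or 5-day PD-1- replicate 3 (edgeR adjusted p up to 0.160), and without 5-day replicate 3 of both populations (edgeR adjusted p = 0.274). Cd8b1, a CD8 chain, had 2.15 (edgeR adjusted p = 0.0466), a call lost without any 1 of the 8 libraries (edgeR adjusted p up to 0.178). Cd5l, a macrophage gene, had a fitted value of 6.75 (edgeR adjusted p = 0.0323), which is no bound because its counts were 33 and 32 in 10-day PD-1+ libraries and 19 and 17 in 5-day PD-1+ libraries, against 0 and 0 in 10-day PD-1- libraries and 10 and 10 in 5-day PD-1- libraries. The Cd5l call was lost without any 1 library except 10-day PD-1+ replicate 2 and 5-day PD-1- replicate 2 (edgeR adjusted p up to 0.165).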

How the results depend on the processing

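The 7 receptor calls over both ages were made under all 14 alternatives. Without each library in turn, the receptors called higher in PD-1+ cells numbered 3 to 5 at 10 days and 3 to 6 at 5 days, those higher with age 0 to 2 in PD-1+ cells and 0 to 2 in PD-1- cells, and those with a lower interaction value 0 to 1. DESeq2 called 1 receptor higher with age in PD-1+ cells. Without 5-day replicate 3 of both populations, 0 receptors were higher with age in PD-1+ cells and 2 in PD-1- cells. The interaction was called lower for 1 receptor with no filter (Ccr7), with DESeq2 (Ccr7) and without 5-day replicate 3 of both populations (Cxcr6). Over all genes, calls with age in PD-1- cells were 17 higher and 14 lower, against 64 and 116 with no filter, 29 and 48 with DESeq2, and 29 and 60 without 5-day replicate 3; interaction calls were 138 and 106, against 305 and 164 with no filter. Without 5-day replicate 3 of both populations, 1156 genes were lower in PD-1+ cells at 5 days (1915 with all libraries), 526 were higher with age in PD-1+ cells (849) and 52 had a lower interaction (106). Without each library in turn, calls over all genes with age in PD-1+ cells ranged over 271 to 934 higher and 279 to 921 lower, in PD-1- cells over 3 to 30 higher and 1 to 60 lower, and for the interaction over 49 to 153 higher and 43 to 132 lower. Causes were not tested. No receptor reversed its direction where called. Depth limits Cxcr4, Ccr8 and Ccr4, whose lowest libraries held 3 to 5 counts.

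The replicate numbers were not taken as pairing, since same-numbered libraries correlated in their deviations by only 0.114 at 10 days and 0.0938 at 5 days. Yet 6 of 8 libraries correlated best with their own number. Same-numbered 5-day libraries also matched in sex, with replicate 3 male and replicate 2 female in both populations. Whether same-numbered libraries share an animal or litter is not given in the labels. With a replicate block, the interaction was called lower for 1 receptor, Ccr2, and over all genes 263 higher and 220 lower, while the Cxcr6 calls at 10 days (adjusted p = 0.0932) and 5 days (adjusted p = 0.0702) were lost.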

Other observations

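Itgb7, the beta-7 chain that pairs with alpha-4 for gut homing, measured 283 and 811 CPM in 10-day PD-1+ libraries and 1317 and 1485 CPM in 5-day PD-1+ libraries, against 1311 and 1335 CPM in 10-day PD-1- libraries and 1459 and 896 CPM in 5-day PD-1- libraries. Its 10-day PD-1+ libraries were the lowest of the 8 and differed widely from each other, and its age difference in PD-1+ cells was not called (-1.36 ± 0.57, edgeR adjusted p = 0.221). Itga4 was at 999 to 1062 CPM in 10-day PD-1+ libraries and 305 to 415 CPM in 5-day PD-1+ libraries, and rose with age there (1.52 ± 0.16, edgeR adjusted p = 1.30e-05). These genes were chosen after their values were seen.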
